A study of Mus musculus with 20 samples.

Results

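The genes of G2 and mitosis were followed in CD8+ T cells sorted from mouse tumours, as 54 genes matched by symbol in an expression table of 45777 symbols. All 54 were found, and 53 reached at least 1 FPKM in at least 5 of the 20 libraries and were tested. FPKM is a count of fragments divided by gene length and by the size of the library, so levels of different genes can be compared per length. The mice were C57BL/6 animals of the hPD-1/hPD-L1/h4-1BB genotype, with the human forms of the checkpoint receptor PD-1, its ligand PD-L1 and the costimulatory receptor 4-1BB, and that genotype was shared by every group. They bore MC38 tumours, from a colon carcinoma line of the same strain, which overexpressed human PD-L1. Treatment began at a mean tumour volume of 150 to 200 mm3, and cells were sorted 4 days later. There were 4 groups, of which the labels call the first Control and give no further description of its treatment. The Pembrolizumab group received an antibody against PD-1, the ABL503 group a bispecific antibody against PD-L1 and 4-1BB, and the Combination group received the antibodies together. Each group had 5 libraries. Whether these came from separate mice is not stated in the labels, and the p-values then speak only of the spread among these libraries. The human alleles are those of the antibodies' targets, and the age and sex of the mice are not given in the labels.

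Cells that have copied their DNA build up cyclins A and B with the kinase Cdk1, which drives entry into mitosis. Chromosomes are then packed by condensin, attached to the spindle through kinetochores, moved by kinesins and released when the spindle checkpoint is satisfied and the anaphase-promoting complex destroys securin and cyclin B. Most of these genes are transcribed late in the cell cycle, and the DREAM and B-Myb/FoxM1 complexes act at their promoters through an element known as the CHR, often together with CCAAT boxes bound by NF-Y. In tumour-infiltrating CD8+ T cells they are widely used as a readout of dividing cells, although in bulk RNA a larger share of dividing cells and more of these RNAs per dividing cell cannot be told apart.

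The promoters of the genes were compared with those of all genes, since sequence played no part in choosing them. RefSeq promoter windows of GRCm38.p6, running from 250 bases before to 50 bases after the start of transcription, were matched for 44 of the 54 genes. Bub3, Prc1 and Ect2 had 2 windows each and the rest 1, while 15.4% of all genes with a window had more than 1, and a gene was counted when any of its windows held the match. The CHR (TTTGAA on either strand) was found for 34 of the 44 genes (77.3%), against 5466 of all 27025 genes with a window (20.2%). The CCAAT box (CCAAT on either strand) was found for 33 (75%), against 41.1%, and the 2 motifs stood together in a window for 29 (65.9%), against 7.97%. A match is a description of the letters only. Windows of Ccna2, Aurkb, Kif20a, Tpx2, Spc24, Incenp, Smc4, Foxm1, Pbk and Dlgap5 were not analysed here. The CHR nearest the start, with 12 bases on each side, is shown for 5 genes that were higher in the Combination, 5′ to 3′ on the strand of the gene with the match in capitals:
Kif15 (chr9:122951050-122951079, plus strand): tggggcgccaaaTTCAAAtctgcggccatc
Ttk (chr9:83834684-83834713, plus strand): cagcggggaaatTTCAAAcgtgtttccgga
Cenpf (chr1:189688067-189688096, minus strand): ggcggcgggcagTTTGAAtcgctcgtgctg
Ncapg (chr5:45669883-45669912, plus strand): ccgcgatagttgTTTGAAaactctggcgct
Smc2 (chr4:52439235-52439264, plus strand): ctcgcgccgaaaTTCAAAggaacagttccg

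Counted from the start that defines the window, the match began 19 bases before it in Kif15, 30 before it in Ncapg, and at base 8 in Ttk, base 3 in Cenpf and base 27 in Smc2. That start lies after the first annotated base of the gene by 38 bases in Ttk, 34 in Ncapg and 21 in Cenpf, and coincides with it in Kif15 and Smc2. Counted from the first annotated base, the matches of Ttk, Cenpf and Ncapg began at bases 46, 24 and 5. Of the 44 genes, 30 (68.2%) held a CHR beginning no more than 50 bases before the start of transcription in a window, or after it, against 5.72% of all genes. The 150 bases upstream of the first annotated base of the gene are shown for 3 of the genes that were higher in the Combination and for Cks2, whose mean was lowest there, with CHR and CCAAT matches in capitals:
Ttk (chr9:83834501-83834650, plus strand): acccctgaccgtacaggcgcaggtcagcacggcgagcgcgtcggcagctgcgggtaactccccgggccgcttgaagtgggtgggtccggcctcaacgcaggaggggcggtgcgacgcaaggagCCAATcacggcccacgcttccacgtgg
Cenpf (chr1:189688108-189688257, minus strand): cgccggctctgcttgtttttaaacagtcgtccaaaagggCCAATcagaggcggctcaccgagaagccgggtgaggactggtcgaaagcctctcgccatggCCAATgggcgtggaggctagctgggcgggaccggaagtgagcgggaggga
Smc2 (chr4:52439071-52439220, plus strand): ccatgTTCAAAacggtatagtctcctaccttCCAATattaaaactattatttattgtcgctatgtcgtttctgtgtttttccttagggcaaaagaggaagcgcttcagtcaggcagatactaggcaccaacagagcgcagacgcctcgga
Cks2 (chr13:51645082-51645231, plus strand): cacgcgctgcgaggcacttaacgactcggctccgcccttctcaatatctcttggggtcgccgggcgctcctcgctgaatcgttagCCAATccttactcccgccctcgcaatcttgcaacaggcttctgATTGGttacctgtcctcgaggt
The Cks2 window of 300 bases held 4 CCAAT matches and no CHR match, while the other 3 windows held CCAAT matches and at least 1 CHR match each. Ccnb1, Bub1 and Cenpe held no CHR match either and had a higher mean in the Combination than in Control. Cdc20 held a CHR match and had a lower mean. Whether a match goes with a change was not tested.

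The libraries were those of T cells. The summed FPKM of 8 T-cell genes, among them Cd8a and Cd3e, ran from 4906 to 7088 in Control and from 6050 to 8035 in the Combination. Cd4 of helper T cells stayed under 1 FPKM in all 20 libraries, as did 5 of 12 macrophage and monocyte genes (Csf1r, Adgre1, C1qa, Itgam and Fcgr1). Lyz2 of the same list was present, at 18.8 ± 26.3 FPKM in Control and 3.40 ± 4.55 in the Combination (SD, n = 5). It reached 64.9 FPKM in Control. Genes of some other cells were present and moved with the groups. The sum of 10 dendritic-cell and MHC class II genes ran from 139.7 to 454 FPKM in Control and from 39.2 to 68.0 in the Combination, and that of 5 B-cell genes from 35.1 to 91.8 and from 16.9 to 29.5. That of 12 macrophage and monocyte genes ran from 1639 to 2409 FPKM in Control and from 2642 to 3614 in the Combination, with no overlap, and limma called 2 of its 7 tested genes higher, Ccr2 by 1.26 (adjusted p = 0.00037) and Ly6c2 by 0.63 (adjusted p = 0.015). Without Ly6c2, which T cells carry too and which was set aside after its value was seen, the sum of the other 11 ran from 28.1 to 136 FPKM and from 59.1 to 78.7. In limma's test 4 of the 7 tested genes of the dendritic-cell list were lower in the Combination than in Control and Zbtb46 was higher. The sum of 7 tumour and epithelial genes ran from 8.25 to 12.9 FPKM in Control and from 3.53 to 7.74 in the Combination. Of its 3 tested genes, limma called Epcam lower in the Combination than in Control, at -0.86 (adjusted p = 0.034). The part of these cells in the values of the G2 and mitosis genes was not tested. Sums over all genes ran from 575918 to 654333 FPKM, and no counting interval can be given because the depth in reads is unknown.

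Levels of the genes spanned a wide range. Cks2, a small protein that binds cyclin-dependent kinases, had the highest mean over the 20 libraries at 455 FPKM, followed by Cenpa, the centromeric histone, at 107, Birc5 (survivin) at 99.8, Bub3 of the spindle checkpoint at 61.0 and Ube2c, the ubiquitin-conjugating enzyme of the anaphase-promoting complex, at 53.2. The lowest tested gene was Ttk, the Mps1 kinase of the checkpoint, at 0.749 FPKM, then Cenpf of the outer kinetochore at 1.20, Foxm1, a transcription factor of late cell cycle genes, at 1.39 and the microtubule depolymerase Kif2c at 1.40. Anln, the actin-binding anillin of the cleavage furrow, was the gene left untested: it ran from 0.177 to 1.49 FPKM and passed 1 FPKM in Combination 2 only.

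The genes moved together from library to library. The Pearson correlation of each gene with the mean of the others, over the 20 libraries on the log2(FPKM + 1) scale, had a median of 0.69. It was above 0.5 for 42 of 53 genes, highest for Ndc80 of the kinetochore (0.90) and lowest for Cks2 (-0.47). These correlations share the groups and the libraries' scaling and are a description. The mean log2(FPKM + 1) over the 53 genes was 3.20, 2.99, 3.36, 3.19 and 3.36 in Control 1 to 5 and 3.07, 3.72, 3.26, 3.22 and 3.07 in Pembrolizumab. It was 3.53, 3.14, 3.37, 3.27 and 3.22 in ABL503 and 3.67, 3.92, 3.50, 3.24 and 3.40 in the Combination. Of the 5 Combination libraries, 4 lay above every Control library, and the groups overlapped, with group means of 3.22 ± 0.156, 3.27 ± 0.265, 3.31 ± 0.151 and 3.55 ± 0.262 (SD, n = 5).

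**Figure D1:**
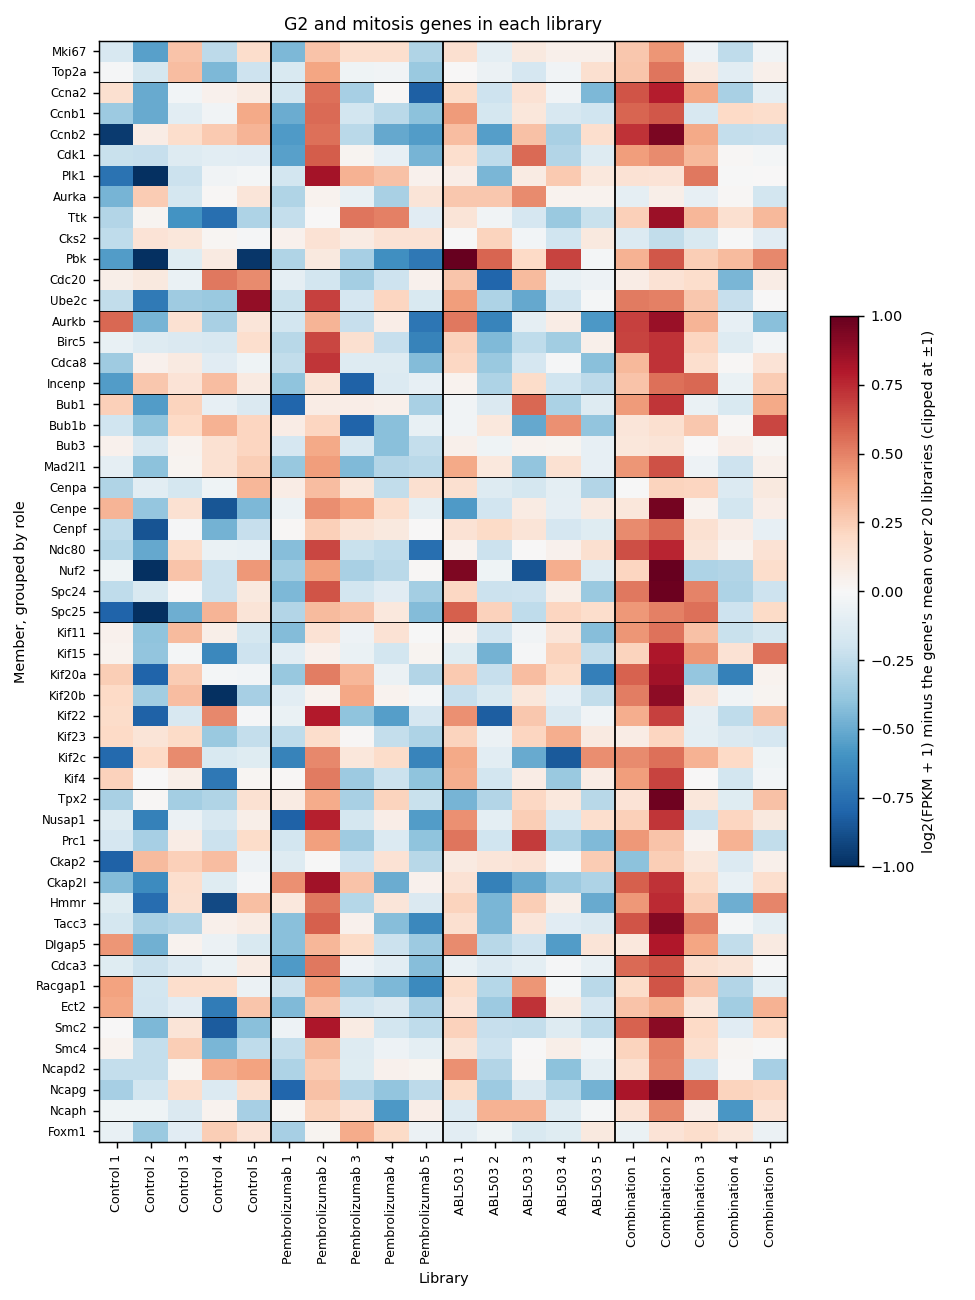
Each row is 1 of the 53 tested genes, grouped by role, and each column 1 of the 20 libraries. Colour gives log2(FPKM + 1) minus the gene's mean over the 20 libraries, clipped at 1 in each direction, and the columns of Pembrolizumab 2 and Combination 2 are red from top to bottom but for a few rows.

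Single libraries stood out within their groups. Pembrolizumab 2 gave the highest value of its group for 46 of the 53 genes, against 23.8% of all tested genes, and Combination 2 for 44, against 20.2%. Combination 2 was the highest of all 20 libraries for 33 genes. At the other end, Combination 4 was the lowest of its group for 33 genes and Control 2 for 27. For these counts, and for that over all 20 libraries, the share over all tested genes was not computed. Whether these libraries stand out over all genes in the same way was not tested. Genes of S phase and DNA replication, a separate list of 53 tested genes, followed the same libraries: their mean log2(FPKM + 1) was 4.38 in Pembrolizumab 2, where the others of that group reached at most 3.88, and 4.52 and 4.30 in Combination 2 and 1.

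**Figure D2:**
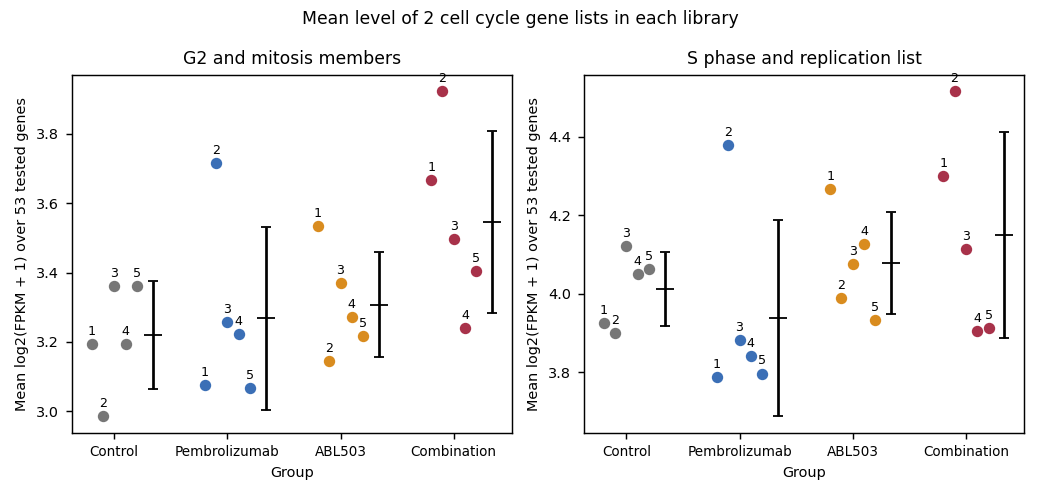
Points give the mean log2(FPKM + 1) of each library over the 53 tested G2 and mitosis genes (left) and over 53 genes of S phase and replication (right), numbered by replicate. Bars give the group mean and SD (n = 5). Pembrolizumab 2 (3.72 on the left) and Combination 2 (3.92) lie above the rest of their groups in each panel.

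The comparison of the Combination with Control called more of these genes than any other. Of 53 genes, 47 had a higher mean on the log2 scale, and 6 rose past an adjusted p of 0.05 in limma: the kinesin Kif15, the checkpoint kinase Ttk, the mitotic kinase Pbk, the kinetochore protein Cenpf and the condensin subunits Ncapg and Smc2. None fell. The 6 genes are 11.3% of the 53 tested, while 12.6% of all 11794 tested genes passed in either direction and 6.34% passed as higher. Ttk, 1 of the 6, passed the filter on low values only through the groups with pembrolizumab. The median log2 change of the genes was 0.32, beside -0.04 over all tested genes. At an unadjusted p under 0.05 there were 17 genes, each of them higher, beside 28.1% of all tested genes in either direction and 13.4% as higher. A log2 change here is a difference of log2(FPKM + 1), which understates the change of genes with low values.

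**Figure D3:**
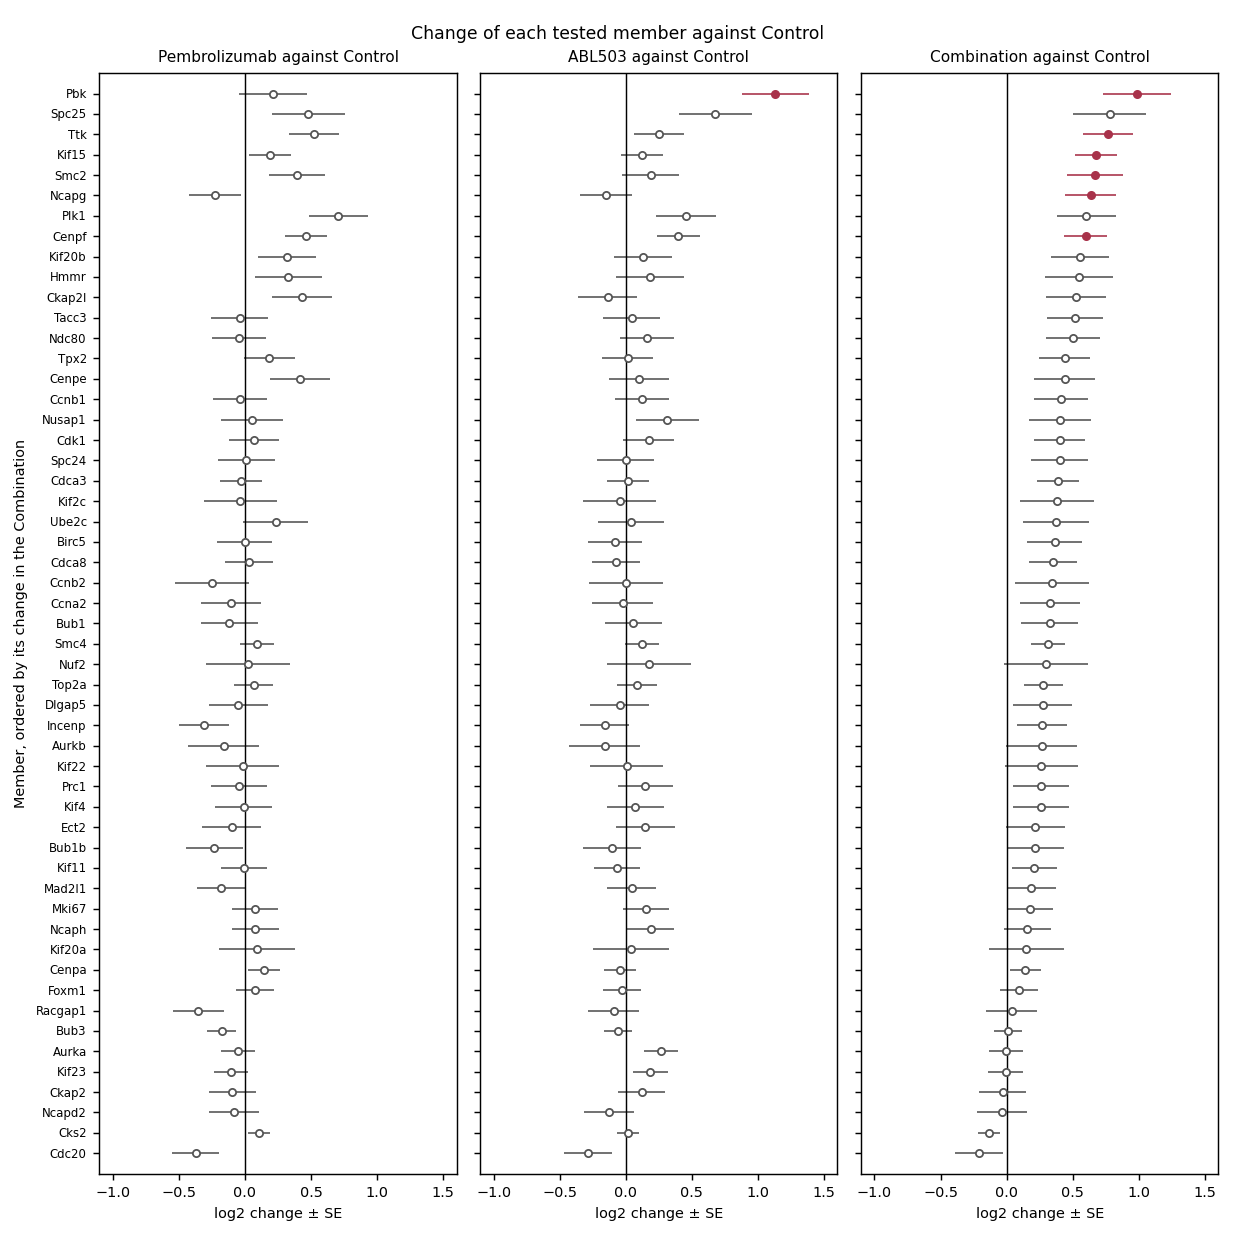
Each row is 1 tested gene and the x axis the difference in log2(FPKM + 1) from Control, with its SE from limma, in Pembrolizumab, ABL503 and the Combination. Filled red points passed an adjusted p of 0.05: Pbk in ABL503, and Kif15, Ttk, Pbk, Cenpf, Ncapg and Smc2 in the Combination. The Control libraries are shared by the 3 panels.

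Kinases, cyclins and their partners made up 9 of the genes, of which 2 rose in the Combination. Pbk, also called TOPK, a kinase of mitotic cells (chr14:65805911-65817822, GRCm38.p6), gave the largest change. The 5 Control libraries, numbered 1 to 5, gave 2.53, 1.04, 3.77, 4.55 and 1.65 FPKM for Pbk and the Combination libraries 5.62, 6.99, 5.18, 5.49 and 6.25. In Pembrolizumab the values were 3.22, 4.57, 3.14, 2.4 and 2.17, and in ABL503 11.9, 6.76, 4.98, 7.29 and 4.12. All 5 Combination libraries and 4 of the 5 ABL503 libraries lay above the highest Control value of 4.55, and Control and Pembrolizumab overlapped. The change from Control was 0.99 (SE 0.25, adjusted p = 0.015). Ttk (chr9:83834651-83872390) phosphorylates the kinetochore to load the checkpoint. The 5 Control libraries gave 0.376, 0.722, 0.116, 0 and 0.361 FPKM for Ttk and the Combination libraries 0.985, 2.05, 1.13, 0.882 and 1.11. In Pembrolizumab the values were 0.426, 0.688, 1.44, 1.4 and 0.56, and in ABL503 0.845, 0.646, 0.503, 0.302 and 0.443. Every Combination library lay above every Control library, 1 of which was listed at 0, while 2 Pembrolizumab libraries lay within the Combination's range and 3 within Control's. The change was 0.77 (SE 0.19, adjusted p = 0.012). Ttk reached 1 FPKM in exactly 5 libraries, each of a group with pembrolizumab, so it was no longer tested when any of Pembrolizumab 3, Pembrolizumab 4, Combination 2, Combination 3 or Combination 5 was left out. Ttk thus entered the test only through libraries of groups in which it was high, and its call is a description. With no filter on low values its adjusted p was 0.033.

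Cdk1, both cyclins B and Plk1, the central regulators of this class, had higher means in the Combination than in Control and none passed. Cdk1 stood at 5.58, 5.56, 6.02, 6.17 and 6.11 FPKM in Control and at 9.27, 9.68, 8.63, 6.74 and 6.6 in the Combination. Its values were 4.27, 10.7, 6.85, 6.29 and 4.56 in Pembrolizumab and 7.67, 5.44, 10.4, 5.28 and 6.03 in ABL503. All Combination values exceeded the highest Control value, and the difference was 0.40 (SE 0.19, adjusted p = 0.18). Ccnb1 stood at 10.01, 8.99, 12.1, 12.8 and 17.4 FPKM in Control and at 20.2, 20.8, 11.7, 15.2 and 15 in the Combination. Its values were 9.01, 19.9, 11.5, 10.7 and 9.62 in Pembrolizumab and 18, 11.5, 14.3, 11.7 and 11.3 in ABL503. Cyclin B1 overlapped between the groups, at 0.41 (SE 0.20, adjusted p = 0.19). Ccnb2 stood at 18.3, 38.5, 41.3, 44 and 46.5 FPKM in Control and at 61.1, 71.2, 47.9, 30.8 and 31.1 in the Combination. Its values were 24.4, 54, 30.2, 25.3 and 24.6 in Pembrolizumab and 45.6, 24.7, 44.9, 29 and 41.3 in ABL503. Cyclin B2 was highest in Combination 1 and 2 and within the Control range in Combination 4 and 5, and the difference was 0.34 (SE 0.28, adjusted p = 0.44). Plk1 stood at 0.878, 0.356, 1.7, 2.06 and 2.09 FPKM in Control and at 2.45, 2.44, 3.49, 2.13 and 2.13 in the Combination. Its values were 1.75, 4.57, 2.97, 2.84 and 2.22 in Pembrolizumab and 2.28, 1.28, 2.31, 2.75 and 2.37 in ABL503. The polo-like kinase was above all Control values in every Combination library, and its difference of 0.60 (SE 0.22, adjusted p = 0.081) missed the threshold. Ccna2, the cyclin A of S phase and G2, and Aurka, the centrosomal kinase, were the other members, at 0.33 and -0.01.

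Cks2 had its lowest group mean in the Combination. Cks2 stood at 380.3, 497, 491, 459 and 450.3 FPKM in Control and at 413, 383, 407, 451 and 419 in the Combination. Its values were 466, 501, 478, 501 and 500.0 in Pembrolizumab and 453, 529, 446, 394 and 485 in ABL503. All 5 Combination libraries lay below all 5 Pembrolizumab libraries, and Cks2 was the gene with the smallest within-group SD (0.12 on the log2 scale). The Combination differed from Pembrolizumab by -0.24 (SE 0.08, adjusted p = 0.22) and from Control by -0.13 (SE 0.08, adjusted p = 0.31), neither past the threshold. Nuf2 of the kinetochore had the largest within-group SD (0.55).

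Condensin, the ring that compacts mitotic chromosomes, had 2 of 5 subunits higher in the Combination. Ncapg, a HEAT-repeat subunit of condensin I (chr5:45669891-45700547), was higher in the Combination. The 5 Control libraries gave 3.13, 3.56, 4.84, 3.71 and 4.79 FPKM for Ncapg and the Combination libraries 8.11, 9.65, 6.72, 5.04 and 4.99. In Pembrolizumab the values were 1.996, 5.36, 3.23, 2.95 and 3.32, and in ABL503 4.91, 3.03, 3.68, 3.26 and 2.75. The 5 Combination libraries lay above all Control and all ABL503 libraries, and 3 of them above the highest Pembrolizumab value of 5.36. The change from Control was 0.64 (SE 0.20, adjusted p = 0.037). Smc2, the ATPase core shared by condensin I and II (chr4:52439221-52488365), was higher with more overlap. It stood at 12.4, 8.78, 13.7, 6.52 and 9.03 FPKM in Control and at 19.2, 24, 14.3, 11.3 and 14.4 in the Combination. Its values were 11.9, 22.5, 13.2, 10.8 and 10.2 in Pembrolizumab and 14.7, 10.4, 10.3, 11.3 and 10.2 in ABL503. Combination 4 lay within the Control range, and Pembrolizumab 2 came close to Combination 2. The change was 0.67 (SE 0.22, adjusted p = 0.046). The remaining subunits, Smc4, Ncaph and Ncapd2, differed from Control by 0.31, 0.16 and -0.03.

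Of the 8 kinesins, Kif15 alone passed the threshold. Kif15, a plus-end motor that helps hold the bipolar spindle (chr9:122951081-123018733), rose in the Combination. The 5 Control libraries gave 3.87, 2.61, 3.69, 2.03 and 3.11 FPKM for Kif15 and the Combination libraries 4.53, 7.33, 5.44, 4.25 and 5.92. In Pembrolizumab the values were 3.42, 3.89, 3.53, 3.18 and 3.84, and in ABL503 3.36, 2.42, 3.71, 4.56 and 3.01. All 5 Combination libraries lay above all 5 Control and all 5 Pembrolizumab libraries, while ABL503 4 reached 4.56 and so passed the lowest Combination value. The change from Control was 0.68 (SE 0.16, adjusted p = 0.0085). Changes of the other kinesins ran from -0.01 for Kif23 of the midzone to 0.55 for Kif20b. Kif11, the main spindle motor, Kif4 and Kif22, the chromosome-arm motors, Kif20a of the midzone and Kif2c lay between.

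The centromere and kinetochore group had 7 genes, each with a higher mean in the Combination, and 1 passed. Cenpf (chr1:189640606-189688107) binds the outer kinetochore and microtubules. The 5 Control libraries gave 0.812, 0.189, 1.14, 0.557 and 0.844 FPKM for Cenpf and the Combination libraries 1.99, 2.19, 1.4, 1.25 and 1.04. In Pembrolizumab the values were 1.18, 1.55, 1.36, 1.31 and 1.17, and in ABL503 1.39, 1.46, 1.36, 0.918 and 0.979. Every Pembrolizumab library exceeded every Control library, whereas Combination 5 at 1.04 fell just under the highest Control value of 1.14. The change in the Combination was 0.60 (SE 0.16, adjusted p = 0.020). Spc25 had the largest change of this group, at 0.78 (SE 0.28, adjusted p = 0.068), and its Control libraries ran from 3.39 to 15.9 FPKM. The other subunits of the NDC80 complex, Ndc80, Spc24 and Nuf2, differed from Control by 0.50, 0.40 and 0.30. Cenpe, the kinetochore kinesin, differed by 0.44 and Cenpa by 0.14.

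**Figure D4:**
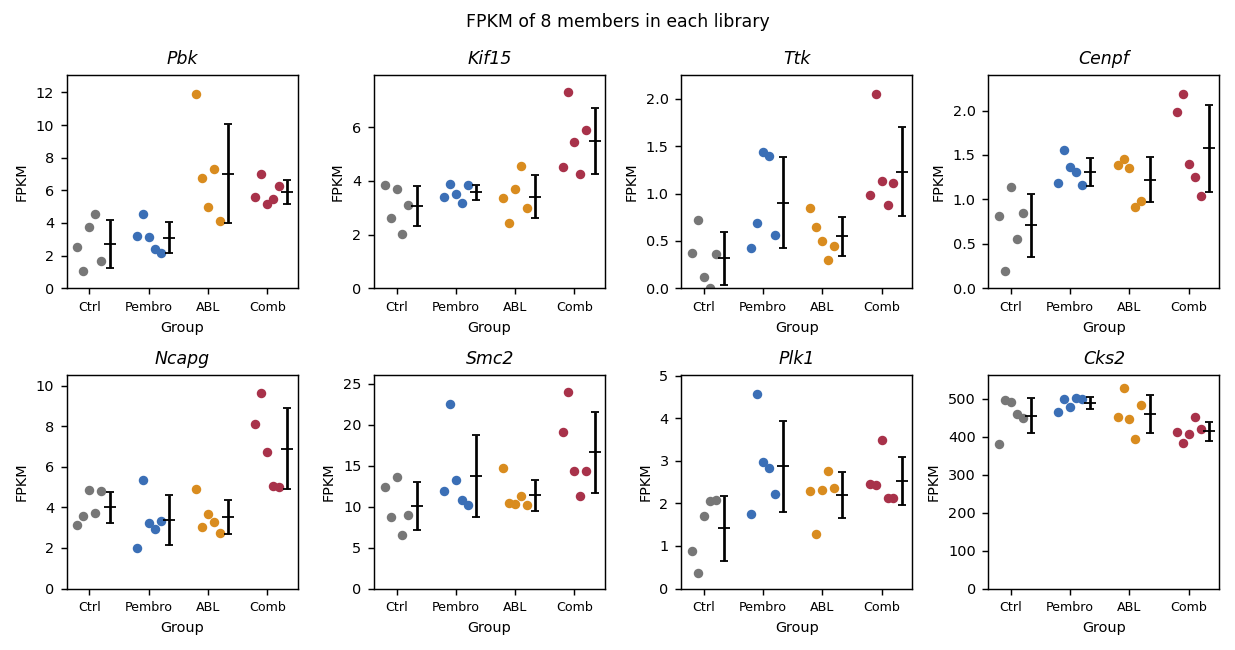
FPKM of 8 genes in each library (points, in replicate order) with the group mean and SD (bars, n = 5), on axes that start at 0. Kif15 runs from 4.25 to 7.33 in the Combination and from 2.03 to 3.87 in Control, and Cks2 runs from 383 to 451 in the Combination and from 466 to 501 in Pembrolizumab.

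The 6 calls differed in how far they held when 1 library was left out. Kif15 and Pbk passed whichever library was left out, with a highest adjusted p of 0.030 and 0.045 in limma, and Ttk passed in the 15 cases in which it could be tested. The cases without a test of Ttk were those that removed a library through which it passed the filter, so its 15 cases are a description. Cenpf, Ncapg and Smc2 lost the call in 3, 6 and 11 of 20 cases, each reaching its highest p without Combination 2 (0.062, 0.11 and 0.13). Some of the cases of Smc2 left out a library of ABL503 or Pembrolizumab, which are not in this comparison, and its change stayed at 0.67. The number of genes called fell from 6 to 2 without Combination 2, and to 3 without Control 2 or Combination 1. Without the 3 libraries with the highest mean over the genes (Pembrolizumab 2, Combination 1 and Combination 2), a choice made after seeing the data that lowers the Combination by construction, none passed, and Kif15 stood at 0.62 with an adjusted p of 0.052 and Pbk at 0.93 with an adjusted p of 0.078. The median change of the genes was then 0.12.

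The genes best known as marks of dividing cells were not among the 6. Mki67 stood at 6.4, 4.68, 9.1, 5.92 and 8.34 FPKM in Control and at 8.98, 10.3, 6.97, 5.92 and 7.09 in the Combination. Its values were 5.06, 9.11, 8.3, 8.29 and 5.72 in Pembrolizumab and 8.23, 6.74, 7.84, 7.56 and 7.55 in ABL503. The Ki-67 gene overlapped between groups, and the difference was 0.17 (SE 0.17, adjusted p = 0.53). Top2a stood at 12.9, 11.4, 16.5, 9.34 and 11.2 FPKM in Control and at 16, 19.4, 14, 12.1 and 13.6 in the Combination. Its values were 11.7, 17.5, 12.6, 12.7 and 9.91 in Pembrolizumab and 13.1, 12.5, 11.5, 12.8 and 14.7 in ABL503. Topoisomerase II alpha, which untangles replicated DNA, differed from Control by 0.28 (SE 0.15, adjusted p = 0.23). Foxm1 stood at 1.26, 0.831, 1.19, 1.82 and 1.6 FPKM in Control and at 1.27, 1.6, 1.68, 1.57 and 1.28 in the Combination. Its values were 0.89, 1.42, 2.08, 1.71 and 1.29 in Pembrolizumab and 1.2, 1.31, 1.14, 1.18 and 1.55 in ABL503. Foxm1 showed the Control and Combination ranges overlapping, at 0.09 (SE 0.14, adjusted p = 0.70).

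In the chromosomal passenger complex, which corrects faulty attachments, all 4 genes had a higher mean in the Combination and none passed. Aurkb stood at 11.4, 5.04, 8.27, 5.66 and 8.08 FPKM in Control and at 12.4, 14.2, 9.52, 6.88 and 5.25 in the Combination. Its values were 6.34, 9.56, 6.1, 7.71 and 4.05 in Pembrolizumab and 11, 4.26, 6.81, 7.77 and 4.58 in ABL503. Aurora B, its kinase, differed from Control by 0.26 (SE 0.27, adjusted p = 0.54). Birc5 stood at 91.5, 88.1, 87, 86.1 and 109 FPKM in Control and at 155, 160.2, 112, 88.3 and 94.5 in the Combination. Its values were 79.3, 154, 108, 81.9 and 60.2 in Pembrolizumab and 114, 70.9, 80.9, 75.8 and 99.7 in ABL503. Survivin was highest in Combination 1 and 2 and within the Control range in Combination 4 and 5, at 0.36 (SE 0.21, adjusted p = 0.26). Cdca8 (borealin) and the scaffold Incenp differed from Control by 0.35 and 0.27. Of the anaphase-promoting complex partners, Ube2c differed from Control by 0.37, and Cdc20, its activator, had its highest group mean in Control. Cdc20 stood at 11.9, 12.2, 10.8, 16.8 and 16.2 FPKM in Control and at 12.1, 12.7, 13, 8.04 and 12.1 in the Combination. Its values were 10.6, 9.88, 8.8, 9.73 and 11.8 in Pembrolizumab and 14, 6.15, 14.4, 10.7 and 10.9 in ABL503. Cdc20 had the largest negative difference of any of the genes, -0.21 (SE 0.18, adjusted p = 0.46), with every group overlapping Control.

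The checkpoint kinase Ttk was counted with the kinases above. The 4 other spindle checkpoint genes gave no call: Bub1, Bub1b, Bub3 and Mad2l1 differed from Control by 0.32, 0.22, 0.009 and 0.19. The 8 spindle proteins had a median change of 0.42, and 4 of them were under an unadjusted p of 0.05, each higher, with a smallest adjusted p of 0.12 in limma. These were Tpx2, an activator of Aurora A, Tacc3, Hmmr and Ckap2l, while Nusap1, Prc1 of the midzone, Dlgap5 and Ckap2 made up the rest, down to -0.03 for Ckap2. Cdca3, a trigger of mitotic entry, differed from Control by 0.39 (SE 0.16, adjusted p = 0.11). Of the cytokinesis genes, Racgap1 and Ect2, which activate RhoA at the cleavage site, differed from Control by 0.04 and 0.22.

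With either antibody alone, at most 1 of these genes passed. In Pembrolizumab, 26 of 53 genes had a higher mean than in Control, the median change was -0.0026, and limma called none, beside 5.55% of all tested genes; 3 genes were higher and none lower at an unadjusted p under 0.05, beside 8.81% of all tested genes as higher. Plk1 had the largest difference, at 0.71 (SE 0.22, adjusted p = 0.068), and Cdc20 the lowest, at -0.37 (SE 0.18, adjusted p = 0.25). Without Pembrolizumab 2 the median became -0.15 and Bub3 passed as lower, at -0.30 (adjusted p = 0.042). Without Control 5, Plk1 passed as higher, at 0.81 (adjusted p = 0.044).

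In ABL503, Pbk alone rose, at 1.13 (SE 0.25, adjusted p = 0.042), beside 0.585% of all tested genes called as higher. Its 5 values ran from 4.12 to 11.9 FPKM, and the highest was ABL503 1. The call was lost in 14 of 20 cases when 1 library was left out, with a highest adjusted p of 0.12 without ABL503 1. Some of these cases left out a library of the Combination or Pembrolizumab, outside this comparison, and the change stayed at 1.13. Of the 53 genes 35 had a higher mean than in Control, with a median change of 0.04. Cdc20 had the lowest difference, -0.28 (SE 0.18, adjusted p = 0.59). Control libraries serve in each of these comparisons, so their results are not independent.

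Set against each antibody alone, the Combination was higher in most of the genes. Against ABL503, Ncapg passed at 0.79 (SE 0.20, adjusted p = 0.024) and Kif15 passed at 0.56 (SE 0.16, adjusted p = 0.047), beside 2.29% of all tested genes called as higher, and 47 of 53 genes were above 0 with a median of 0.25. When 1 library was left out, Kif15 lost this call in 14 of 20 cases and Ncapg in 5. Some of the cases of Kif15 left out a library of Control or Pembrolizumab, outside this comparison, and its change stayed at 0.56. Neither passed without ABL503 2, ABL503 5 or Combination 2, and the highest adjusted p, 0.072 for Ncapg and 0.13 for Kif15, came without Combination 2. Aurka, with -0.27 (SE 0.13, adjusted p = 0.24), was the lowest. Against Pembrolizumab, 50 of 53 genes were above 0 with a median of 0.28 and limma called none, beside 0.161% of all tested genes. The genes moved together over the libraries, so counts of genes above 0 are not counts of separate results. There were 10 genes at an unadjusted p under 0.05, of which 9 were higher, beside 13.2% of all tested genes and 7.16% as higher. Ncapg was the nearest to the threshold, at 0.86 (SE 0.20, adjusted p = 0.067), and Cks2 the lowest. Without Pembrolizumab 2, Ncapg (adjusted p = 0.033) and Ndc80 (adjusted p = 0.048) passed.

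Between the antibodies alone, ABL503 and Pembrolizumab differed in none of the genes by limma, beside 1.28% of all tested genes, with 4 at an unadjusted p under 0.05, beside 13.5%. Pbk was higher in ABL503 by 0.92 (SE 0.25, adjusted p = 0.083), and Ckap2l, a spindle protein, had the lowest difference, -0.57 (SE 0.23, adjusted p = 0.25). The interaction asks whether the Combination differed from the sum of the changes in the antibodies alone. No gene passed it, beside 0.203% of all tested genes, and 3 were at an unadjusted p under 0.05, beside 10.3%. Ncapg was highest, at 1.01 (SE 0.28, adjusted p = 0.15), and Plk1 lowest, at -0.56 (SE 0.32, adjusted p = 0.57). A change in the Combination beyond that sum was therefore not detected for any of them.

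Averaged over the layout of 2 antibodies, the groups with pembrolizumab were higher than those without it for 3 genes, beside 6.22% of all tested genes called as higher. Ckap2l differed by 0.55 (SE 0.16, adjusted p = 0.028) and Kif15 by 0.37 (SE 0.11, adjusted p = 0.031). The third was Ttk, at 0.52 (SE 0.13, adjusted p = 0.015). It entered the test only through libraries of the groups in which it was high, so its call is a description, and with no filter on low values its adjusted p was 0.038. Of 53 genes 44 were above 0, with a median of 0.13. When 1 library was left out, Ckap2l lost the call in 5 of 20 cases and Kif15 in 8. Without Combination 2 none of the genes passed, and Ttk was then untested. The count was 1 without Control 2, ABL503 2 or Pembrolizumab 2, and 5 without Control 3. The groups with ABL503 were higher for Pbk, at 0.95 (SE 0.18, adjusted p = 0.016), beside 0.678% of all tested genes. Pbk kept this call without each library in turn, and 47 of 53 genes were above 0, with a median of 0.17.

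Genes whose groups did not overlap were also counted, with no model. All 5 Combination libraries lay above all 5 Control libraries for Cdk1, Plk1, Kif15, Ttk, Ncapg and Pbk, 6 of 53 (11.3%), beside 4.42% of all tested genes. For Pembrolizumab above Control this held for Cenpf, 1 of 53 (1.89%), beside 2.71%, and for ABL503 above Control for no gene, beside 1.7%. The Combination lay above Pembrolizumab for Kif15 and Pbk, 2 of 53 (3.77%), beside 1.59%, and below it for Cks2, 1 of 53, beside 1.17%. It lay above ABL503 for Ttk, Cdca3 and Ncapg, 3 of 53 (5.66%), beside 3.19%. Ttk is counted here although it passed the filter on low values only through libraries of groups in which it was high. The highest group mean was in the Combination for 43 genes, in ABL503 for 5, in Pembrolizumab for 3 and in Control for 2. Since the genes moved together over the libraries (median r 0.69), these are not separate results.

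Neighbouring cell cycle genes were counted in the same comparison. Of 59 further mitosis genes, 2 were higher than in Control and none lower: Cenpn of the inner kinetochore (0.69, adjusted p = 0.041 in limma) and Ska1 of the spindle attachment complex (0.61, adjusted p = 0.045), with a median of 0.16. When 1 library was left out, Cenpn lost the call in 8 of 20 cases and Ska1 in 12, with a highest adjusted p of 0.11 and 0.10. At an unadjusted p under 0.05 there were 15, of which 12 were higher. Of 53 genes of S phase and replication, none was higher and 2 were lower, with a median of 0.20. The 2 lower genes were Slbp, which binds histone messages (-0.25, adjusted p = 0.025), and Cdt1, which loads the replicative helicase (-0.68, adjusted p = 0.026), and they lost the call in 2 and 3 of 20 cases. At an unadjusted p under 0.05 there were 14 genes of that list, of which 10 were higher. These counts are to be read beside the 12.6% of all tested genes that passed and the 28.1% at an unadjusted p under 0.05.

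Genes that restrain the cell cycle changed in either direction. Of 18 tested genes for CDK inhibitors and quiescence, 7 were lower and 3 higher in the Combination than in Control, beside 6.24% of all tested genes called as lower and 6.34% as higher. The median of the 18 was -0.28. Klf2, a transcription factor of resting and recirculating T cells, fell by 1.17 (adjusted p = 0.0030 in limma), from 38.4 ± 10.1 to 17.1 ± 7.29 FPKM (SD, n = 5). Btg1, an antiproliferative factor, fell by 0.74 (adjusted p = 0.00057), from 291 ± 34.3 to 175 ± 22.2 FPKM, and Cdkn2d, the p19 inhibitor of CDK4 and CDK6, fell by 0.65 (adjusted p = 0.0020), from 175 ± 32.4 to 111 ± 18.6 FPKM. Cyclin G1, encoded by the p53 target Ccng1, rose by 0.90 (adjusted p = 0.0032), from 14.9 ± 3.04 to 29.4 ± 8.86 FPKM. The other calls, named after their values were seen, were Cdkn1b, Foxo1, Cdkn1c and Tob1, which fell, and Cdkn1a and Rb1, which rose. Cdkn1a (p21) and Rb1 restrain entry into S phase.

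Of 6 tested genes of G1, the D-type cyclin Ccnd2 rose by 0.46 (adjusted p = 0.0069 in limma) and its partner kinase Cdk6 by 0.60 (adjusted p = 0.0080) in the Combination. Of all tested genes 6.34% were called higher there. Myc, of the same list, differed from Control by -0.65 (adjusted p = 0.073) and did not pass. It was called lower in the Combination than in ABL503, at -0.89 (adjusted p = 0.033), and in the pembrolizumab main effect, at -0.53 (adjusted p = 0.040). When 1 library was left out, Myc lost these calls in 6 and 10 of 20 cases. Ccnd2 and Cdk6 were higher in Pembrolizumab too, by 0.66 (adjusted p = 0.0010) and 0.69 (adjusted p = 0.0059), and Cdk6 in ABL503 by 0.61 (adjusted p = 0.042). The ABL503 call of Cdk6 was lost in 13 of 20 cases when 1 library was left out, with a highest adjusted p of 0.12 without ABL503 5, and under 6 of the 9 other alternatives. Leaving out Combination 2, which is outside that comparison, also lost the call, with the change of Cdk6 still at 0.61. Btg1 and Cdkn2d were lower in Pembrolizumab, by -0.50 (adjusted p = 0.017) and -0.60 (adjusted p = 0.0071), and Ccng1 higher by 0.71 (adjusted p = 0.026). Of the S phase list Ccne2 was lower there, at -0.62 (adjusted p = 0.030), and of the further mitosis genes Lmnb1, at -0.47 (adjusted p = 0.020). Of all tested genes 5.55% were called in either direction. When 1 library was left out, Ccng1 lost its call in 5 of 20 cases, Btg1 in 1, Ccne2 in 7 and Lmnb1 in 2. In that comparison none of the 53 G2 and mitosis genes passed; the difference between the lists was not tested. Without the 3 libraries with the highest G2 and mitosis means, Klf2 and Btg1 stood at -1.04 and -0.67 in the Combination and still passed.

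**Figure D5:**
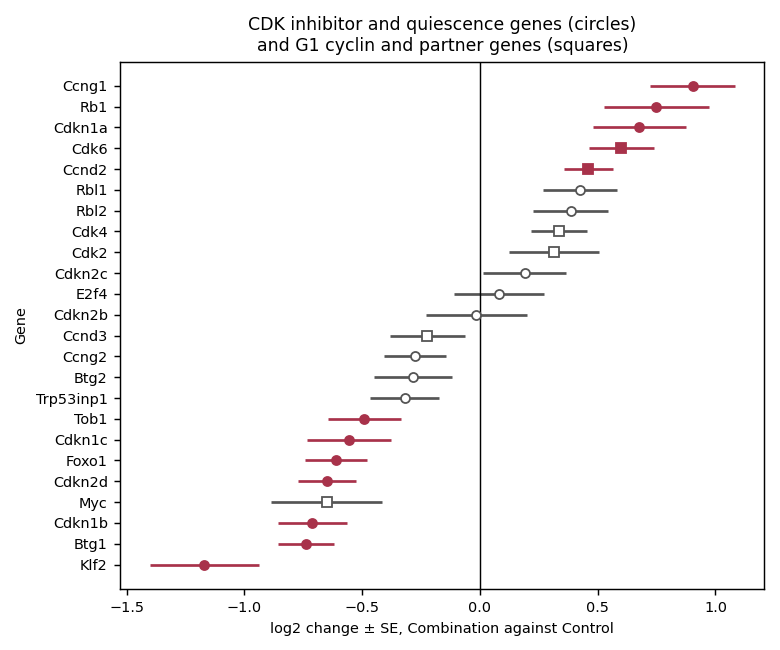
Each row is 1 tested gene for CDK inhibitors and quiescence (circles) or of G1 (squares), and the x axis gives the difference in log2(FPKM + 1) between the Combination and Control with its SE from limma. Filled red points passed an adjusted p of 0.05, from Klf2 at -1.17 to Ccng1 at 0.90.

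Outside the list, the genes most alike to the mean of the 53 over the 20 libraries included Stmn1, the microtubule regulator stathmin (r = 0.88), Pclaf, which binds the replication clamp (0.85), Actr3 of the actin-branching complex (0.85) and Cks1b, the paralog of Cks2 (0.85). Among the 50 most alike genes, 11 were on the S phase list and 6 on the list of further mitosis genes. Cks1b ran from 117 to 239.7 FPKM, while Cks2 was the gene least like the mean. These are descriptions over libraries that share groups and scaling.

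Some values could hold reads of other genes. In RefSeq, 22 of the 54 genes overlap another gene, and the labels do not say that the counting used strand. Of the 6 genes higher in the Combination, Kif15 overlaps Gm35691, which stood at no more than 0.381 FPKM in any library, and Ncapg overlaps Lcorl, which averaged 4.23 FPKM in Control and 2.68 in the Combination. Smc2 overlaps Tmc4-ps, not analysed here, and its antisense gene Smc2os was listed at 0 in all 20 libraries. Pseudogenes by name are also in the table for Ccnb1, Kif22 and Kif4.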

How the data were processed

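RNA of sorted CD8+ T cells was made into 20 libraries with SMART-Seq v4, a full-length kit for few cells, per the labels. The submitters' processing notes name HISAT2, StringTie and the mouse build GRCm38 (mm10); versions and annotation are not given in the sources used here. The deposited table holds 1 value per gene symbol and library, taken to be FPKM because the values are not whole numbers and the column sums differ. Depth is therefore unknown, and only the 5 libraries of a group give a measure of error.

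Values were used as log2(FPKM + 1), for the 11794 genes that reached 1 FPKM in 5 or more libraries. All 20 libraries entered 1 fit with limma 3.58.1 (R 4.3.3), which estimated a mean for each group, a spread common to the groups on 16 residual degrees of freedom and an intensity trend. The 9 comparisons were the 6 pairs of groups, the interaction and 2 main effects. Tests were two-sided, with Benjamini-Hochberg adjustment over all genes tested within a comparison and a threshold of 0.05. The fitting code was tested on simulated data, with changes placed in genes of higher level. For the Combination against Control it recovered 26 of 58 genes with a 1.5-fold change (44.8%). With a 2-fold change it recovered 70 of 77 (90.9%). A gene that did not pass may therefore still differ. Summaries and plots were made in Python 3.11.15 (pandas 2.3.3, matplotlib 3.10.9). Promoter windows and positions are RefSeq's, on GRCm38.p6.

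The genes, lists and tests were chosen with earlier results of these data known. Named were genes past the threshold, the extremes of each comparison, a panel of 10, the extremes of level and spread, the 5 most alike outside genes (1 of which is not reported here), and up to 4 called genes of each other list; Ccr2, Ly6c2 and the calls gained without 1 library (Bub3, Ndc80) were named after their values were seen. Alternatives were a pseudocount of 0.1, no filter, libraries rescaled to an equal sum, array weights, quantile normalization, a block for the replicate number, a fit to only the groups compared, leaving out Control 1 with ABL503 3 (the lowest array weights in an earlier analysis), and leaving out each library. Leaving out Pembrolizumab 2, Combination 1 and Combination 2 was added after seeing the data. Count-based tests were not run, since the values are not counts.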

Additional observations from a re-analysis of the deposited data

Results flagged for a closer look

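Among 72 groups of 5 values (the 18 quantities of the named G2 and mitosis genes and means, in each group), 8 had a highest or lowest library far from the others, with a gap to the nearest library above 0.71 of the group's range. Chance flags about 1 in 20 groups. Values are log2(FPKM + 1). In Control, Birc5 was 6.78 in library 5, where the others lay between 6.44 and 6.53, and Ccnb2 was 4.27 in library 1, where the others lay between 5.30 and 5.57. In Pembrolizumab, Ccnb2 was 5.78 in library 2, against 4.67 to 4.96. In ABL503, Plk1 was 1.19 in library 2, against 1.71 to 1.91, and Smc2 was 3.97 in library 1, against 3.48 to 3.62. In the Combination, Cdc20 was 3.18 in library 4, against 3.71 to 3.81. Plk1 was 2.17 in library 3 of the Combination, against 1.64 to 1.79, and Ttk was 1.61 in library 2, against 0.91 to 1.09.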

How the results depend on the processing

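The number of G2 and mitosis genes called moved as follows. For ABL503 against Control it went from 1 to 0 with no filter, array weights, the replicate block, only the groups compared, without Control 1 and ABL503 3, and without the 3 libraries left out after seeing the data. For the Combination against Control it went from 6 to 3 with only the groups compared and to 0 without the 3 libraries, and for the Combination against Pembrolizumab and ABL503 against Pembrolizumab from 0 to 1 with array weights. For the Combination against ABL503 it went from 2 to 1 with a pseudocount of 0.1, equal sums, the replicate block, only the groups compared and without Control 1 and ABL503 3, and to 0 with no filter and without the 3 libraries. For the pembrolizumab main effect it went from 3 to 1 with no filter, 6 with quantile normalization and 0 without the 3 libraries, and for the ABL503 main effect from 1 to 0 with no filter. Leaving out each library gave 0 to 1 genes for Pembrolizumab and for ABL503 against Control, 2 to 8 for the Combination against Control, 0 to 2 against Pembrolizumab and against ABL503, 0 to 0 for ABL503 against Pembrolizumab and for the interaction, 0 to 5 for the pembrolizumab main effect and 1 to 1 for the ABL503 main effect. In the Combination against Control, Aurkb (-0.066), Ccnb2 (-0.0062) and Mki67 (-0.015) turned below 0 without the 3 libraries. Same-numbered libraries showed little shared deviation (median r 0.03 over 30 pairs, -0.002 over 120 differently numbered pairs). No pairing was seen, and whether the numbers mark one is not stated in the labels. The replicate block changed no other count by over 1.5 times. Except where the alternative leaves out libraries or genes, the cause was not tested. The depth in reads is unknown.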
